A study of Mus musculus with 4 samples.

Results

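The genes described here are members of the Bcl2 family, which sets whether a cell lives or dies through its mitochondria. They were found as the probe sets that the array's annotation table assigns to 10 listed symbols, Mcl1, Bcl2l1, Bcl2, Bcl2l2, Bax, Bak1, Bcl2l11, Bid, Bad and Bik. Of these 10 genes, 9 had at least 1 probe set, with 29 probe sets between them, out of 12393 named genes and 22690 probe sets on each array. No probe set was assigned to Bax in the table used, so Bax was not analysed here. Each of the 9 genes read above the floor on all 4 arrays with its brightest probe set. The floor was a log2 value of 5.18, the 40th percentile of all values, and readings under it were not interpreted.

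The study asked how Gfi1, a repressor of transcription in blood cells, acts in the choice between granulocytes and monocytes. Cells were sorted from the bone marrow of untreated C57BL/6 mice of 8 weeks, backcrossed for at least 10 generations, and 1 array was made from each of 4 populations. Granulocytes were CD11b-positive, Gr1-high cells of GFP:Gfi1 KI/WT mice, in which green fluorescent protein (GFP) is knocked into a Gfi1 allele as a reporter. Gfi1-deficient monocytes came from a GFP:Gfi1 KI/KI mouse, which has no working Gfi1 allele, by a CD11b-positive, Gr1-low sort. GFP-high cells and GFP-low monocytes were the CD11b-positive, Gr1-low, GFP-high and GFP-low fractions of GFP:Gfi1 KI/WT mice, which keep a wild-type Gfi1 allele. All 4 populations therefore carried at least 1 knock-in allele, and no wild-type mouse was used here. The labels do not say how many mice were pooled, and they name no GFP gate for the Gfi1-deficient cells, so genotype and sort differ together.

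With 1 array a population, every difference below compares arrays, has no replicate check and carries no p-value. The scatter between 2 probe sets of the same gene is given beside the differences as a description of disagreement within these arrays. It leaves out the spread between mice and any effect of sorting, RNA or labelling that moves both probe sets alike. It had an SD of 0.16 between the Gfi1-deficient and GFP-low arrays and between 0.27 and 0.39 for the other comparisons, in log2 units. A gene was counted as apart where its levels differed by 2-fold or more, a log2 difference of 1.

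The Gfi1 probe set read log2 7.31 in granulocytes, 5.18 in Gfi1-deficient monocytes (just under the floor), 10.31 in GFP-high cells and 3.74 in GFP-low monocytes. Monocyte markers did not bear out the label of the GFP-high cells as monocytes: 10 of 10 were at least 2-fold lower there than in GFP-low monocytes, with a median log2 difference of -4.76. Granulocyte progenitor markers were at least 2-fold higher there for 5 of 5 genes (median 4.38), and cycling markers for 3 of 4. Neutrophil markers were also at least 2-fold higher in GFP-high cells for 7 of 8 genes, and eosinophil markers for 3 of 4. Macrophage markers were at least 2-fold higher for 3 of 5 genes and lower for 1. The higher markers in GFP-high cells were thus not those of progenitors alone. The array of Gfi1-deficient monocytes differed from the others in the sex-linked Xist and Eif2s3y, at 5.80 and 8.31, against 9.56 to 10.93 and 3.40 to 4.39 on the other arrays. The difference between the 3' and 5' control probe sets of Actb, a measure of RNA quality, ran from 0.08 to 0.28 over the 4 arrays.

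Bcl2 family proteins fall into 3 kinds. Prosurvival members hold the effectors Bax and Bak1 in check, the effectors open the outer mitochondrial membrane and release cytochrome c, and BH3-only members are stress sensors that bind prosurvival members or effectors and start cell death. In mice, neutrophils depend on Mcl1 for survival, and loss of Bcl2l11 raises the number of blood leukocytes, granulocytes among them. Many of these proteins, Mcl1 above all, are also controlled after transcription, by turnover and cleavage, which arrays do not measure.

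Mcl1 encodes a short-lived prosurvival protein that binds Bak1 and the BH3-only proteins Bcl2l11 and Pmaip1. Its brightest probe set read log2 12.08 in granulocytes, 11.69 in Gfi1-deficient monocytes, 10.56 in GFP-high cells and 11.82 in GFP-low monocytes. GFP-high cells stood low and the other 3 arrays lay close together. The level in GFP-high cells was 2.40-fold lower than in GFP-low monocytes, a log2 difference of -1.26. Mcl1 had 6 probe sets, and 6 of 6 were lower in GFP-high cells, by differences from -1.40 to -0.76, with 5 of them past 2-fold. After quantile normalization another probe set was the brightest and Mcl1 was at -0.71, under 2-fold. The brightest is 1 of 3 Mcl1 probe sets of the x_at type, whose probes can match other transcripts, and the 3 without that mark read -1.40, -1.10 and -0.76. In sorted cells measured in bulk, fewer cells of a type and less RNA per cell cannot be told apart.

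Bcl2l11 encodes Bim, a BH3-only protein that binds every prosurvival member and kills cells deprived of growth factors. Its brightest probe set read log2 8.87 in granulocytes, 9.78 in Gfi1-deficient monocytes, 8.31 in GFP-high cells and 9.62 in GFP-low monocytes. Both Gr1-low monocyte arrays were high, granulocytes lay between, and GFP-high cells were lowest. The level was 2.49-fold lower in GFP-high cells than in GFP-low monocytes (log2 difference -1.31), and 5 of 5 probe sets were lower, from -1.31 to -0.18. The smallest of these differences came from a probe set under the floor in GFP-high cells, and 2 of the 5 were past 2-fold. A prosurvival gene and a BH3-only gene were thus both lower in the GFP-high population, with log2 differences of -1.26 and -1.31.

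**Figure D1:**
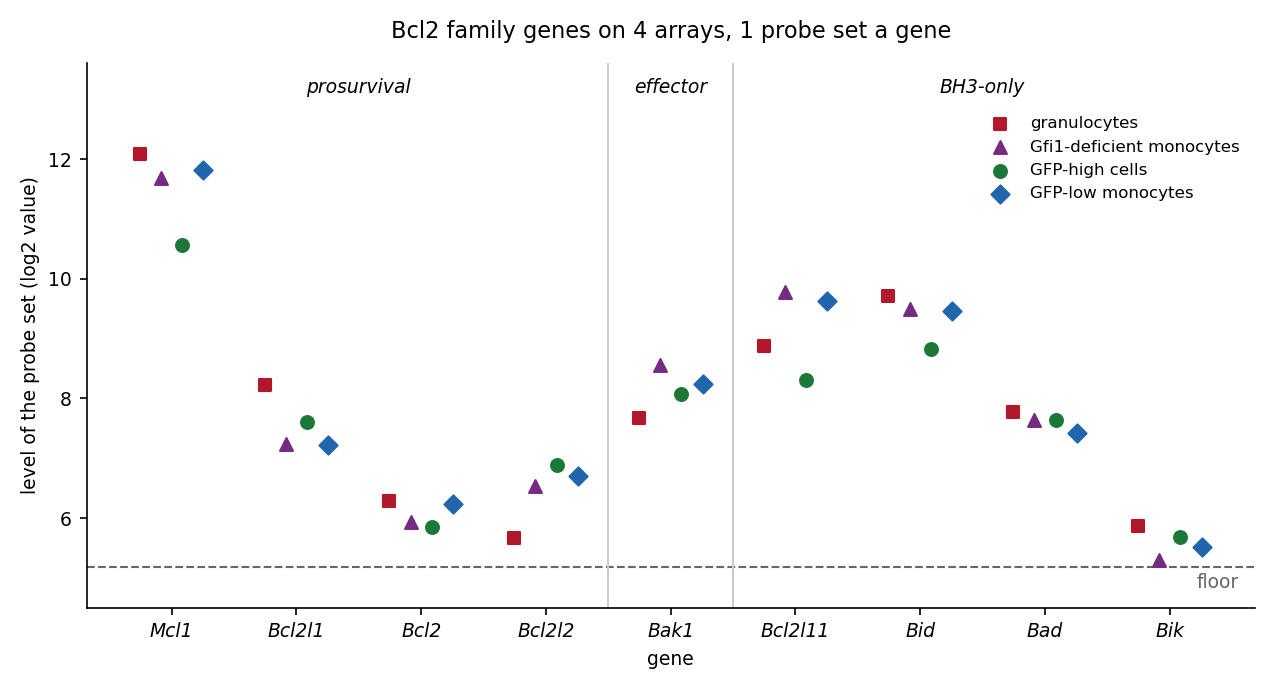
Level (log2 value, vertical axis) of the brightest probe set of each of the 9 Bcl2 family genes (horizontal axis, grouped by role) on the 4 arrays, 1 point an array; the dashed line is the floor at 5.18. Mcl1, Bcl2l11 and Bid read lowest in GFP-high cells, at 10.56, 8.31 and 8.82. Bcl2l1 read 8.23 in granulocytes and 7.22 in GFP-low monocytes.

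Sequence upstream of Mcl1 and Bcl2l11 is shown because these were the members at least 2-fold lower in GFP-high cells than in GFP-low monocytes. The GFP-high array had the highest Gfi1 reading. Bcl2l1 is shown because it read highest in granulocytes and, alone among the 9 members, passed 2-fold above GFP-low monocytes there. Bcl2, Mcl1, Bid, Bad and Bik also read highest in granulocytes, but by less than 2-fold against GFP-low monocytes. Gfi1 is known to bind DNA at a core of AATC. The sequences are from RefSeq (build GRCm38.p6) and hold the 250 bases before an annotated start, 5′ to 3′ on the gene's strand, with each AATC, or GATT for the other strand, in capitals. Bcl2l11 has 2 annotated starts, both shown, and Bcl2l1 has 3, of which the one with the longer form AAATCA is shown.
Mcl1 (chr3:95658471-95658720, plus strand): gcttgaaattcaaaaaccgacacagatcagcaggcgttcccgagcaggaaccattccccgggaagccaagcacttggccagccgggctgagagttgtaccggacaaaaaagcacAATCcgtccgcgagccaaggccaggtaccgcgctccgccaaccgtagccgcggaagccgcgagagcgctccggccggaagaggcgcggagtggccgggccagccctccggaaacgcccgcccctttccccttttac
Bcl2l11, upstream start (chr2:128125788-128126037, plus strand): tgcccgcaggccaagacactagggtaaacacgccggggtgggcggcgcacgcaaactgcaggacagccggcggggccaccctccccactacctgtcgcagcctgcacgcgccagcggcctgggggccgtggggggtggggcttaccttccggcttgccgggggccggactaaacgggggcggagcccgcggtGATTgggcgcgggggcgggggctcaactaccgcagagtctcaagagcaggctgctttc
Bcl2l11, downstream start (chr2:128127325-128127574, plus strand): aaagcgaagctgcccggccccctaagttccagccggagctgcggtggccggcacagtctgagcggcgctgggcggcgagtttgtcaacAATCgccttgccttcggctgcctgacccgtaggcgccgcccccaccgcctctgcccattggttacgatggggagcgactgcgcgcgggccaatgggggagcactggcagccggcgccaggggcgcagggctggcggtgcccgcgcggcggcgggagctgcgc
Bcl2l1 (chr2:152830718-152830967, minus strand): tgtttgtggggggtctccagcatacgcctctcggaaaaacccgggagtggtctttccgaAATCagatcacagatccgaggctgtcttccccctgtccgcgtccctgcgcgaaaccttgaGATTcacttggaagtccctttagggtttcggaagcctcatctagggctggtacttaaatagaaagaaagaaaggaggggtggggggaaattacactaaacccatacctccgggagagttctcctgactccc

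The windows of Mcl1 and both starts of Bcl2l11 held 1 AATC each, and the Bcl2l1 window shown held 2. Windows were found for 9 of the 10 listed genes, Bax included and Bik not, with 13 windows in all. Bid also read lowest in GFP-high cells, by less than 2-fold against GFP-low monocytes. The windows of Bid, Bcl2 and Bcl2l2 held 0 AATC. AATC on either strand was present in 10 of these 13 windows, against 69.0% of 32851 windows of the same length over all genes. The longer AAATCA, or TGATTT for the other strand, contains AATC and was present in 1 of the 13, against 12.4% of all windows. The Mcl1 and Bcl2l11 windows were rich in G and C, at 64.4% for Mcl1 and 72% and 73.2% for Bcl2l11, against 53.2% in the Bcl2l1 window shown and a median of 52.4% over all windows. A match of letters is a description of the window and not a binding site.

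Bcl2l1 encodes Bcl-xL, a prosurvival protein, and in a shorter splice form a protein that promotes death. Its brightest probe set read log2 8.23 in granulocytes, 7.24 in Gfi1-deficient monocytes, 7.60 in GFP-high cells and 7.22 in GFP-low monocytes. Granulocytes were highest, GFP-high cells came next, and both monocyte arrays were level. Granulocytes were 2.01-fold above GFP-low monocytes (log2 difference 1.01), and 3 of the 3 probe sets above the floor passed 2-fold there, from 1.01 to 1.45. GFP-high cells were 1.30-fold above GFP-low monocytes, under the 2-fold rule, with 3 of 3 probe sets higher, from 0.38 to 0.94. Another Bcl2l1 probe set was below the floor on all 4 arrays. Which splice form a probe set reads was not determined here.

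Erythroid cells use Bcl-xL, so their markers were read beside Bcl2l1. Of 5 measured erythroid markers, 3 were above the floor on each array (Alas2, Klf1 and Slc4a1), and Hba-a1 and Epb42 were below it throughout. The summed linear level of those above the floor was 1117 in granulocytes, 374 in Gfi1-deficient monocytes, 496 in GFP-high cells and 744 in GFP-low monocytes. Granulocytes were highest for these markers, as for Bcl2l1, but GFP-low monocytes, which had the lowest Bcl2l1, were second. The part of these markers in the Bcl2l1 difference was not tested.

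Bcl2, the founding prosurvival member, read log2 6.28 in granulocytes, 5.94 in Gfi1-deficient monocytes, 5.85 in GFP-high cells and 6.24 in GFP-low monocytes on its only probe set. These values lie near the floor, and their range of 0.43 makes the arrays hard to order. Lymphocytes express Bcl2, and B cell markers had a summed level of 671 in granulocytes, 252 in Gfi1-deficient monocytes, 282 in GFP-high cells and 394 in GFP-low monocytes. Of 7 measured B cell markers, 5 were above the floor in granulocytes and 4 on each other array, with Pax5 and Blk below it throughout. T cell markers had a summed level of 469 in granulocytes, 73 in Gfi1-deficient monocytes, 170 in GFP-high cells and 89 in GFP-low monocytes. Of 6 measured T cell markers, 2 were above the floor in granulocytes and in GFP-high cells and 1 on each other array. The part of B and T cells in the Bcl2 level was not tested.

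Bcl2l2 encodes Bcl-w, a further prosurvival protein. Its brightest probe set read log2 5.67 in granulocytes, 6.53 in Gfi1-deficient monocytes, 6.88 in GFP-high cells and 6.70 in GFP-low monocytes. Granulocytes were low, 2.31-fold below GFP-high cells and 2.03-fold below GFP-low monocytes. The other probe set above the floor read the opposite way, with a log2 difference of 0.31 for granulocytes minus GFP-high cells and 0.27 for granulocytes minus GFP-low monocytes. With both probe sets averaged, the differences were -0.45 and -0.38, under 2-fold, so the direction of Bcl2l2 rests on 1 probe set. The granulocyte value of that probe set, 5.67, also lies near the floor. With the floor at the 60th percentile, granulocytes minus GFP-high cells was -0.08, as a bound. Under that floor no difference from GFP-low monocytes was computed, as both arrays were below it.

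Bak1 encodes the measured effector, a protein that forms pores in the mitochondrial outer membrane. It read log2 7.67 in granulocytes, 8.56 in Gfi1-deficient monocytes, 8.07 in GFP-high cells and 8.24 in GFP-low monocytes. Granulocytes were lowest, and the range over the 4 arrays, 0.89, stayed under 2-fold. A dimmer Bak1 probe set, above the floor only in granulocytes (5.19) and GFP-high cells (5.55), did not follow this order.

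Bid encodes a BH3-only protein that caspase-8 cleaves, which links death receptors to the mitochondria. Its brightest probe set read log2 9.71 in granulocytes, 9.49 in Gfi1-deficient monocytes, 8.82 in GFP-high cells and 9.46 in GFP-low monocytes. As for Mcl1 and Bcl2l11, GFP-high cells were lowest, and both Bid probe sets gave that order. The log2 difference of GFP-high cells minus GFP-low monocytes was -0.65 on the brighter and -0.29 on the dimmer probe set, neither past 2-fold.

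Bad, a BH3-only protein that growth factor signalling holds inactive by phosphorylation, was the most even of the 9 genes on its brightest probe set. It read log2 7.78 in granulocytes, 7.65 in Gfi1-deficient monocytes, 7.64 in GFP-high cells and 7.43 in GFP-low monocytes. The range of 0.35 was smaller than that of all but 15.3% of the 8621 genes above the floor on at least 1 array. Bik, a BH3-only protein of the endoplasmic reticulum, read close to the floor at log2 5.88 in granulocytes, 5.31 in Gfi1-deficient monocytes, 5.68 in GFP-high cells and 5.51 in GFP-low monocytes. Its other 2 probe sets were below the floor throughout, so no order is given for Bik.

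Over the 4 arrays, 4 of the 9 genes (Mcl1, Bcl2l11, Bcl2l2 and Bcl2l1) had a range of 2-fold or more, against 42.8% of all genes above the floor, a share close to that of the family. The widest range was 1.52 for Mcl1, and the median over all genes was 0.85.

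GFP-high cells and GFP-low monocytes have the same genotype and Gr1 gate and differ in reporter level. Of the 9 genes, 2 (Mcl1 and Bcl2l11) read at least 2-fold lower in GFP-high cells, where 9.61% of all 8232 genes were, and 0 were at least 2-fold higher, where 9.03% of all genes were. The median over the 9 genes was -0.17, against 0.03 over all genes. The SD between probe sets in this comparison was 0.27, under the differences of Mcl1 and Bcl2l11. That SD does not measure the error of a difference between 2 single arrays. The lower Mcl1 and Bcl2l11 went along with lower monocyte markers, whose summed linear level was 2345 in GFP-high cells and 52556 in GFP-low monocytes. It also went with higher progenitor markers, at 45030 in GFP-high cells and 2018 in GFP-low monocytes. All 10 measured monocyte and all 5 progenitor markers were above the floor on both arrays. Granulocytes also had a low monocyte marker sum, 5298, with Mcl1 at log2 12.08 and Bcl2l11 at 8.87. The Gfi1-deficient array had a progenitor marker sum of 11811, with Mcl1 at 11.69 and Bcl2l11 at 9.78. In GFP-low monocytes Mcl1 was at 11.82 and Bcl2l11 at 9.62. The part of these markers in the Mcl1 and Bcl2l11 differences was not tested.

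Granulocytes were compared with GFP-low monocytes as the granulocytic and monocytic populations of KI/WT mice. Bcl2l1 was at least 2-fold higher, as 10% of all 8503 genes were, and Bcl2l2 at least 2-fold lower on its brightest probe set, as 18.2% were. Bcl2l11 was 1.69-fold lower in granulocytes (log2 difference -0.75), with 5 of 5 probe sets lower, from -1.05 to -0.15. Mcl1 was 1.20-fold higher, with 6 of 6 probe sets higher, from 0.07 to 0.77, and its difference of 0.26 was within the SD of 0.35 between probe sets. The median over the 9 genes was 0.24, against 0.00 over all genes.

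Granulocytes differed from GFP-high cells most in Mcl1, which was 2.88-fold higher in granulocytes (log2 difference 1.52) with 6 of 6 probe sets past 2-fold, from 1.30 to 1.88. It was the only 1 of the 9 genes to be at least 2-fold higher, where 8.93% of all 8457 genes were, and Bcl2l2 was the only 1 at least 2-fold lower, where 16.4% were, in all 2 of 9 apart against 25.3% of genes. Bid was 1.85-fold higher in granulocytes, Bcl2l1 1.54-fold and Bcl2l11 1.48-fold, all under the 2-fold rule and with all probe sets above the floor in the same direction. Cycling markers ran the other way, with 4 of 4 measured genes at least 2-fold lower in granulocytes and a summed linear level of 1617 in granulocytes and 12814 in GFP-high cells.

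Gfi1-deficient and GFP-low monocytes, both Gr1-low, differ in genotype, but the Gfi1 probe set was under the floor on both arrays. The 2 arrays also differed in the sex-linked Xist and Eif2s3y, so genotype and a difference in sex cannot be told apart here. Monocyte markers did not separate these arrays (0 of 10 genes 2-fold apart), but 5 of 5 progenitor markers did, with a median log2 difference of 2.47 and a summed linear level of 11811 on the Gfi1-deficient array and 2018 on the GFP-low array. Of 8 neutrophil markers 4 were past 2-fold on the lower side (median -1.60), with summed levels of 7955 on the Gfi1-deficient array and 27962 on the GFP-low array, and of 3 eosinophil markers above the floor 2 were past it on the higher side. The part of these markers in the member differences was not tested. Of the 9 genes, 0 were 2-fold apart, against 1.91% of all 8010 genes, 0.637% higher and 1.27% lower. The differences ran from -0.31 for Bcl2 to 0.31 for Bak1, with Mcl1 at -0.14, Bcl2l11 at 0.16, Bcl2l1 at 0.02 and Bid at 0.03. Bcl2l11 was higher on 5 of 5 probe sets, from 0.16 to 0.53, the last from a dim probe set. The SD between probe sets was 0.16, and the differences of Mcl1, Bcl2l11, Bcl2l1 and Bid lay within it on the brightest probe set. Bak1 at 0.31, Bad at 0.22, Bcl2 at -0.31, Bik at -0.21 and Bcl2l2 at -0.17 were past it, Bcl2l2 barely so. The share of all genes past this SD was not computed, so this is not read as a trait of the family. Bcl2 and Bik also lie near the floor, with 1 probe set each above it.

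**Figure D2:**
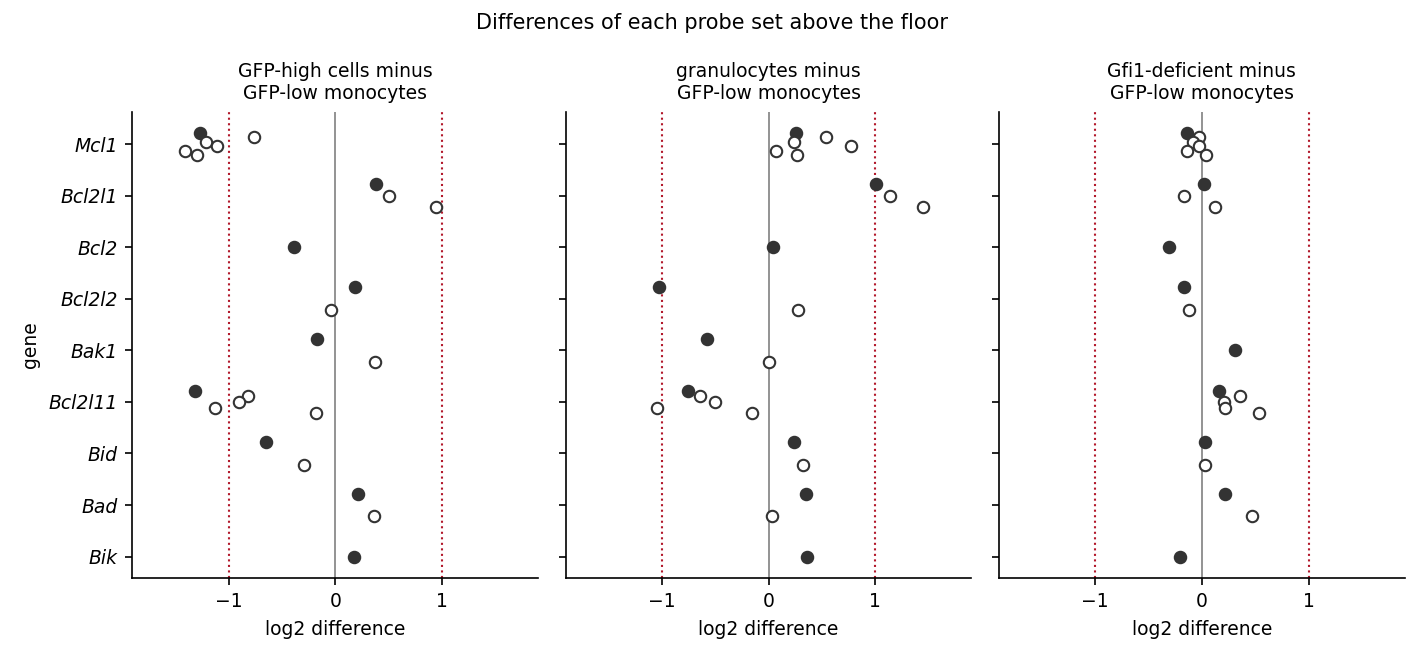
Log2 difference (horizontal axes) of each probe set above the floor on at least 1 of the 2 arrays compared, by gene (vertical axis), for 3 comparisons that share the GFP-low array; filled points are the brightest probe set of a gene, open points the others, and dotted lines mark 2-fold. In the left panel the 6 Mcl1 points lie between -1.40 and -0.76 and the 5 Bcl2l11 points between -1.31 and -0.18, and in the right panel no point reaches 2-fold.

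Set against GFP-high cells, Gfi1-deficient monocytes had 2 of the 9 genes at least 2-fold higher, where 9.53% of all 8195 genes were, and 0 at least 2-fold lower, where 7.81% were, with 17.3% of genes apart in either direction. These were Bcl2l11, 2.77-fold higher (log2 difference 1.47, 5 of 5 probe sets higher), and Mcl1, 2.18-fold higher (1.13), with 6 of 6 probe sets higher, from 0.74 to 1.34. After quantile normalization, under which another Mcl1 probe set was the brightest, Mcl1 was at 0.66, under 2-fold. This comparison and those of GFP-high cells with the other arrays share the GFP-high array, so the low Mcl1 and Bcl2l11 in each rest on a single measurement. Between granulocytes and Gfi1-deficient monocytes 0 of the 9 genes were 2-fold apart, against 31.5% of all 8520 genes, 11.2% higher and 20.3% lower. Bcl2l1 lay just under the rule there, at 0.98, with its other 2 probe sets above the floor at 1.31 and 1.33. Bcl2l11 was at -0.91, with 5 of 5 probe sets lower in granulocytes.

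**Figure D3:**
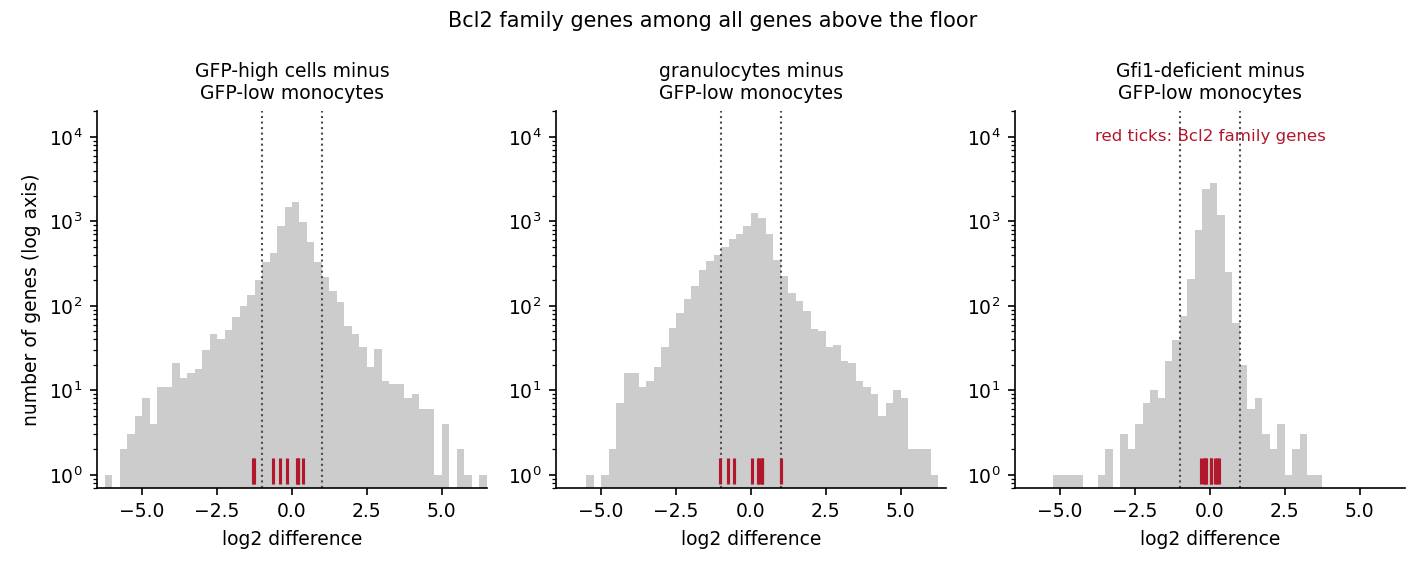
Number of genes (vertical axes, log scale) by log2 difference (horizontal axes, bins of 0.25) for 3 comparisons that share the GFP-low array, with red ticks for the 9 Bcl2 family genes and dotted lines at 2-fold. The ticks lie within the body of each distribution, from -1.31 to 0.38 on the left and from -0.31 to 0.31 on the right.

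A list of 63 further genes of the cell death pathway, chosen by role, was read on the same arrays. Of these, 52 had a probe set assigned to a single gene, and 46 of those passed the floor in some population. The Bcl2a1 genes, prosurvival members known from neutrophils, had only 3 probe sets shared between copies, from which no gene is named. Of the 46, 12 had levels in GFP-high cells at least 2-fold below those in GFP-low monocytes and 1 had a higher level, a share of 28.3% apart against 18.6% of all genes. By direction, 9.61% of all genes were at least 2-fold lower and 9.03% higher. The higher gene was Myc, a growth regulator, at 1.33, which was not past 2-fold with the floor at the 60th percentile.

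BH3-only genes stood among the lower ones. Pmaip1 encodes Noxa, which binds Mcl1 and promotes its breakdown, and it read log2 6.94 in granulocytes, 8.53 in Gfi1-deficient monocytes, 4.71 in GFP-high cells and 8.74 in GFP-low monocytes. Only the GFP-high array was under the floor, so Pmaip1 was at least 11.8-fold lower there than in GFP-low monocytes. Bbc3 encodes Puma, a BH3-only protein induced by p53, and it read 7.07 in granulocytes, 6.52 in Gfi1-deficient monocytes, 5.59 in GFP-high cells and 7.0 in GFP-low monocytes. Along with Bcl2l11 and Bid, these were lowest on the GFP-high array, as was Bnip3, at 7.27 there and 7.94 to 8.84 on the other arrays, while Bad and Bik were not. Hrk read 5.44 or less on each array, and Bmf was below the floor throughout. Each of Pmaip1 and Bbc3 rests on 1 probe set.

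Outside the family, the executioner caspase gene Casp6 read log2 6.87 in granulocytes, 9.46 in Gfi1-deficient monocytes, 5.69 in GFP-high cells and 8.55 in GFP-low monocytes. It was 7.29-fold lower in GFP-high cells than in GFP-low monocytes. Further genes lower in GFP-high cells were Bag3, a chaperone partner, at -2.04, Naip6 and Naip5, close copies that encode bacterial sensors with inhibitor of apoptosis domains, at -1.92 and -1.74, and Parp1, a DNA repair enzyme cut by caspases, at -1.49. In Gfi1-deficient against GFP-low monocytes 0 of the 46 genes were 2-fold apart, where 1.91% of all genes were, and Casp6 came closest at 0.91.

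Granulocytes had 2 of the 46 genes at least 2-fold higher and 14 lower than GFP-low monocytes, a share of 34.8% apart against 28.2% of all genes. The higher genes were the death receptor gene Fas, which read log2 9.09 in granulocytes and 7.52 in GFP-low monocytes, and Ddit3, a stress-induced transcription factor, at a difference of 1.44. Of the 4 genes for proteins released from mitochondria, 2 were lower, Aifm1 (apoptosis-inducing factor) at -2.16 and Htra2 at -1.09. Cycs, which encodes cytochrome c, read 9.85 in granulocytes and 11.33 in GFP-low monocytes, a difference of -1.48. Birc5 (survivin), an inhibitor of apoptosis family gene made by dividing cells, was lower at -2.20, and cycling markers were at least 2-fold lower for 4 of 4 genes. Of the 8 caspase and apoptosome genes, 4 were lower in granulocytes (Casp6, Cycs, Casp2 and Casp8) and 0 higher, beside those shares of 18.2% and 10%. The lower side was led by Parp1 at -2.53 and Bag3 at -2.27 and held Pmaip1 at -1.80 and Casp6 at -1.68.

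Against GFP-high cells, granulocytes had 9 of the 46 genes at least 2-fold higher, where 8.93% of all genes were, and 7 lower, where 16.4% were. The higher side was led by Fas at 2.65, Pmaip1 at 1.76 as a lower bound and Foxo3, a transcription factor that induces BH3-only genes, at 1.60. Bnip3, Ddit3 and Bbc3 followed at 1.57, 1.48 and 1.47. The lower side was led by Birc5 at -2.98, Aifm1 at -2.30 and Myc, at -1.86 as a bound, followed by Cycs at -1.46, Htra2 at -1.34 and Fadd, an adaptor of death receptors, at -1.26. Gfi1-deficient monocytes had 9 of the 46 higher than GFP-high cells, where 9.53% of all genes were, and 0 lower, where 7.81% were. The 9 were led by Casp6 at 3.78, Pmaip1 at 3.35 as a lower bound, Bag3 at 1.93, Foxo1 at 1.60, Parp1 at 1.46 and Naip5 at 1.18. Granulocytes had 5 of the 46 higher than Gfi1-deficient monocytes, where 11.2% of all genes were, and 12 lower, where 20.3% were. The 5 were Fas at 1.69, Ddit3 at 1.43, the p53 regulator gene Mdm2 at 1.25, Cflar, an inhibitor of caspase-8, at 1.07 and Foxo3 at 1.05, and the 12 were led by Casp6 at -2.59, Birc5 at -2.56, Aifm1 at -2.52, Parp1 at -2.50, Bag3 at -2.16 and Cycs at -1.75.

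**Figure D4:**
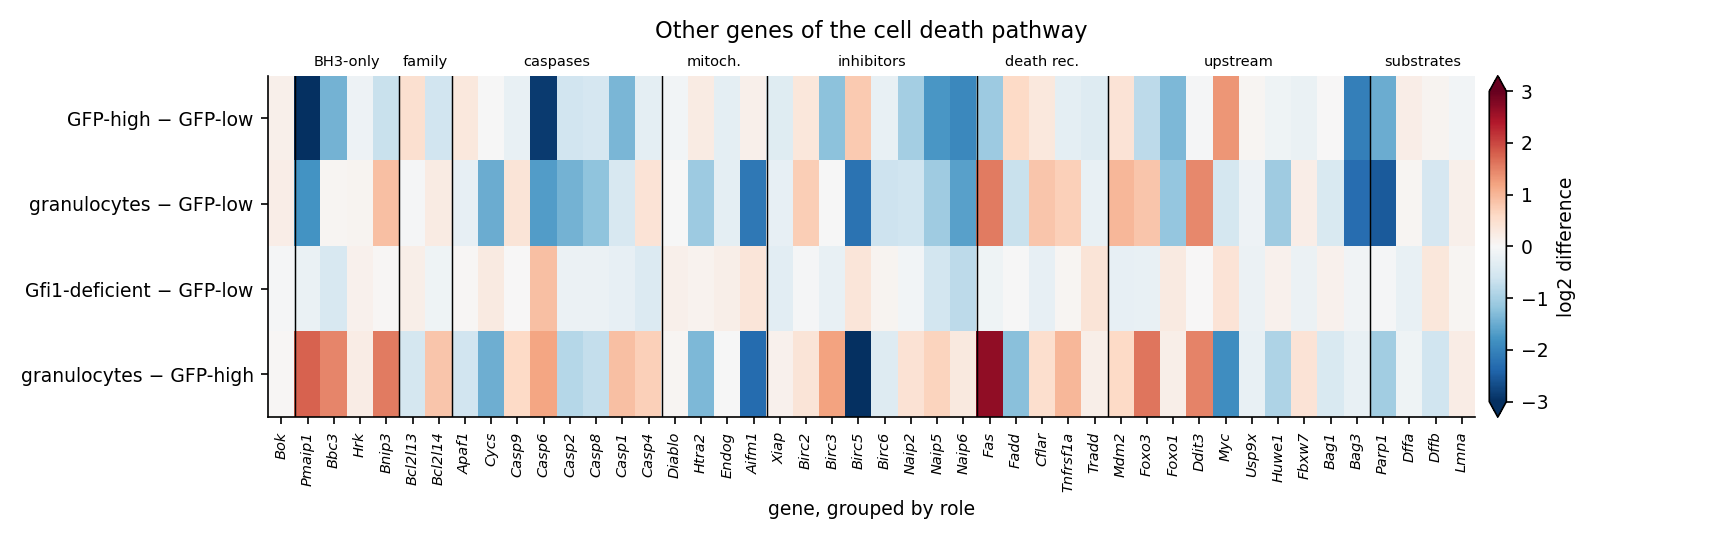
Log2 difference (colour, red for higher and blue for lower in the population named first, capped at 3) of the pathway genes above the floor on at least 1 array (columns, grouped by role) in 4 comparisons (rows). Pmaip1 and Casp6 stand out in the top row, with a bound of -3.56 and a value of -2.87, and no gene reaches 1 in the row of Gfi1-deficient minus GFP-low monocytes, where Casp6 is at 0.91.

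Genes with a like pattern were sought for the 4 members that ranged over 2-fold or more, by the Euclidean distance of log2 levels centred on each gene's mean over the 4 arrays, among 8620 other genes. For Mcl1 the nearest were the actin-capping gene Capg at 0.09, Lfng at 0.11 and Arap1 at 0.12. For Bcl2l11 they were Slc23a2, a vitamin C transporter gene, at 0.06, Slc35f5 at 0.10 and Guca1a at 0.12, the last under the floor in GFP-high cells and set to it there. For Bcl2l1 the nearest gene above the floor on all 4 arrays was the kinesin gene Kif2a, at 0.03. Per2 at 0.03 and Ush1c at 0.04 also came out near, but both were under the floor in Gfi1-deficient and GFP-low monocytes, so those distances rest on values set to the floor and are not read as a like pattern. For Bcl2l2 they were the telomere-binding gene Terf2, Aebp2 and Ssb, each at 0.09. Capg read log2 11.46 in granulocytes, 11.06 in Gfi1-deficient monocytes, 9.88 in GFP-high cells and 11.09 in GFP-low monocytes. With 4 points a gene and 8620 genes searched, a small distance describes these arrays only.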

How the data were processed

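RNA of 4 sorted mouse bone marrow populations was measured with 1 array each. Per the labels' protocols, total RNA was isolated with TRIzol and biotin-labelled cRNA was made from 6 µg following Affymetrix's manual. Values deposited by the authors are taken as log2 from their range of 2.70 to 14.50. How the authors summarised and normalized them, and the log base, is not given in the sources used here. Array medians lay between 5.91 and 6.01, so no further scaling was applied. Probe sets were named from the platform annotation. Of 22690 probe sets, 20380 had 1 gene, 691 several, 1555 none and 64 were controls. Where a gene had several probe sets, the brightest by its mean over the arrays stood for it. Values under the floor, the 40th percentile, were set to it, a difference that involves a floored array is a bound, and no difference was computed with both there. Each log2 difference takes the second-named population from the first. With no replicates no test was made. Alternatives were floors at the 20th and 60th percentile, quantile normalization and the mean over probe sets. All 9 measured members were named. Of the pathway list, genes 2-fold apart were counted and up to 6 a side named, and for members with a range of 1 or more the 3 nearest genes were named. Other genes named singly were chosen after their values were seen. Members, gene lists and markers were chosen with earlier results of these data known. Counting was tested on simulated data. Python 3.11.15, pandas 2.3.3, numpy 2.4.6 and matplotlib 3.10.9 were used.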

Additional observations from a re-analysis of the deposited data

How the results depend on the processing

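Under the floor at the 20th percentile the 54 differences of the 9 members all moved by less than the SD between probe sets. Under the floor at the 60th percentile 37 of 39 did, under quantile normalization 51 of 54 and under the mean over probe sets 46 of 54. No difference of 2-fold or more changed sign under these 4 alternatives. Counts of members at least 2-fold apart fell to 1, against 2 in the values reported, for GFP-high cells minus GFP-low monocytes and Gfi1-deficient monocytes minus GFP-high cells under quantile normalization. They were also 1 for granulocytes minus GFP-high cells under the higher floor and the mean over probe sets, and 1 for granulocytes minus GFP-low monocytes under these and quantile normalization. For granulocytes minus Gfi1-deficient monocytes the count was 1, against 0, under quantile normalization and the mean over probe sets, the gene being Bcl2l1 at 1.16 and 1.21. Quantile normalization made a different Mcl1 probe set the brightest, which put Mcl1 at -0.71 for GFP-high cells minus GFP-low monocytes and at 0.66 for Gfi1-deficient monocytes minus GFP-high cells. With the probe set kept, an alternative chosen after seeing the data, these were -1.22 and 1.07. The Bcl2l2 difference for granulocytes minus GFP-low monocytes was -0.38 with its probe sets averaged and -0.96 after quantile normalization. Counts over the pathway list stayed within 1.5 times the reported count under all 4 alternatives, but with the floor at the 60th percentile 0 were higher in GFP-high cells than in GFP-low monocytes, against 1 (Myc). No paired analysis was possible because each population has 1 array. With 1 array a population, precision is limited by their number, and members near the floor (Bik and Bcl2) cannot be ordered. The granulocyte reading of Bcl2l2, at 5.67, also lies near the floor.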
